A study of Mus musculus with 2 samples.

Results

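The genes described here are the 10 that encode the TGF-β ligands (*Tgfb1*, *Tgfb2* and *Tgfb3*), their receptors (*Tgfbr1*, *Tgfbr2* and *Tgfbr3*) and the latent TGF-β binding proteins (*Ltbp1*, *Ltbp2*, *Ltbp3* and *Ltbp4*). They were chosen by name from the 31053 genes of the count tables, and all 10 were found in both. The counts came from fibro-adipogenic progenitors (FAPs), the mesenchymal cells between muscle fibers, sorted as Lin-Vcam1-Sca1+ cells from limb muscle of C57BL/6 mice aged 3 weeks. A single droplet scRNA-Seq library was made for each genotype. The library labelled WT came from *Bap1*f/f mice, and the library labelled cKO from *Prx1-Cre*;*Bap1*f/f mice, so that both carried the floxed alleles and only the second carried Cre. *Prx1-Cre* is active in limb mesenchyme, from which FAPs and other connective tissue cells of the limb derive. The number of mice behind each library was not stated in the sources used here. A single library per genotype leaves no replicates to set a difference against, so the report holds no p-values.

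TGF-β is secreted bound to its own propeptide in a latent complex. A latent TGF-β binding protein holds this complex and anchors it to fibrillin and fibronectin in the matrix, and integrins or proteases free the ligand. The freed ligand binds the type II receptor, which recruits and activates the type I receptor, and SMAD transcription factors carry the signal to the nucleus. In muscle, TGF-β is known for acting on FAPs to drive matrix production.

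Cells were split as the gene list's rule sets out. Dpp4-type cells had 25 or more UMIs per 10000 over *Pi16*, *Sema3c*, *Anxa3* and *Efemp1* together, which mark the FAPs that also express *Dpp4*, and all remaining cells are called other cells. There were 1050 Dpp4-type cells among 4103 in the library labelled WT and 1251 among 4378 in the library labelled cKO. *Dpp4* itself, which the split did not use, stood at 298 CPM in Dpp4-type cells against 56.5 CPM in other cells of the library labelled WT. In the library labelled cKO it stood at 268 against 39.5 CPM. A level is the UMIs of a gene summed over a group of cells, scaled to the total UMIs of that group and given as CPM, with an exact Poisson 95% interval. A ratio of 2 levels has an exact binomial 95% interval, and a ratio of 2 such ratios one from a normal approximation on the log scale. All intervals cover counting error only, not the spread between mice.

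The libraries held 51015705 and 49540066 UMIs, with medians of 12232 and 11018 UMIs per cell, and 5 cell barcodes occurred in both. The FAP genes *Pdgfra*, *Ly6a* and *Cd34* were present at 298 CPM or more in both libraries, and *Ptprc*, *Pax7*, *Myod1* and *Myf5* had no UMI in either. Other markers on the same lists were found. The immune markers summed to 6.43 and 13.7 CPM, and *Chodl*, listed for muscle stem cells, stood at 4.23 and 4.22 CPM. Cells high in markers of other cell types were removed before deposit, so an absent marker does not measure the purity of the sort. The listed tendon markers *Tnmd*, *Scx* and *Mkx* summed to 24.6 CPM in the library labelled WT and 64.4 CPM in the library labelled cKO, and the Schwann cell markers to 19.2 and 66.0 CPM, of which *S100b* made up 16.8 and 63.7 CPM. *Bap1*, the targeted gene, had 897 UMIs (17.6 CPM) in the library labelled WT and 1072 UMIs (21.6 CPM) in the library labelled cKO. These counts are read at the 3′ end of the transcript, outside the deleted exons, so they check nothing about the deletion, and which library is which rests on the labels alone. A gene was compared between groups when its mean normalized expression exceeded 0.01 over all cells and it had 20 or more UMIs in the groups compared, which 9 of the 10 genes met. *Ltbp2* did not.

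Over all cells, *Ltbp1* was 3.47-fold higher (interval 3.36 to 3.59) in the library labelled cKO and *Ltbp4* was 1.91-fold lower (interval 1.88 to 1.94). These 2 of the 9 genes differed by more than 1.5-fold, a size that 15.9% of all 11761 genes compared also reached, 8.43% upward and 7.51% downward. *Ltbp1* was the only one of them past 3-fold, against 2.56% of all genes. The ligands and receptors lay between 0.814 and 1.36 times the level of the library labelled WT. The median log2 ratio was 0.31 over the 9 genes and 0.10 over all genes. Scaling by TMM, which sets aside the genes with extreme ratios, moved the median of all genes by -0.11 in other cells, so that ratios near 1 are best read against that shift.

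**Figure D1:**
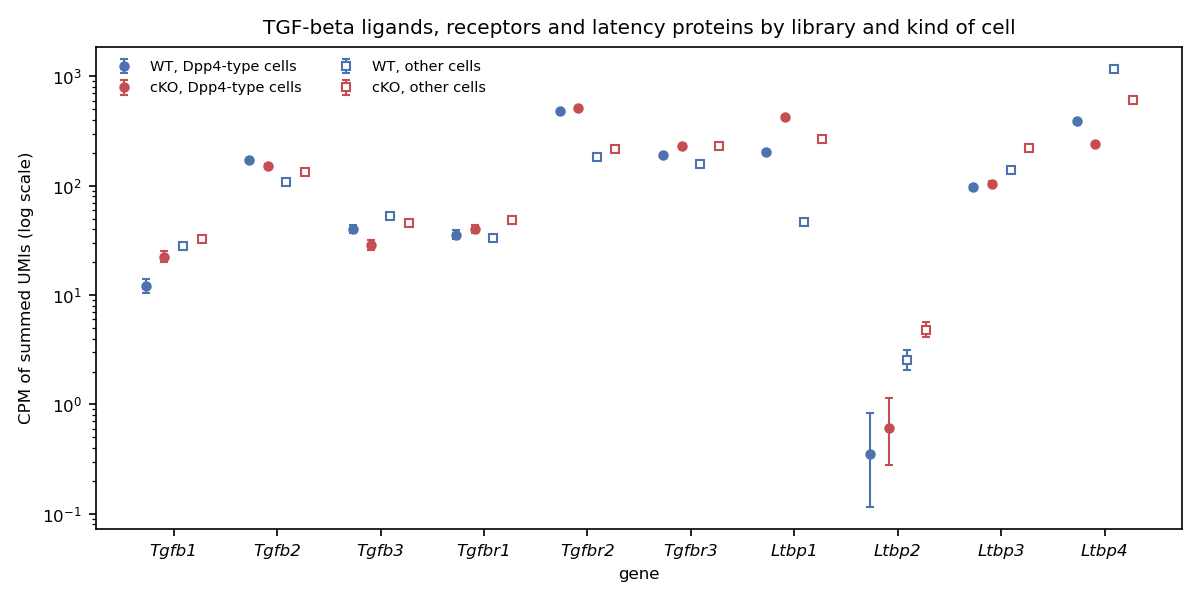
Level of each of the 10 genes in CPM of summed UMIs (log axis) in Dpp4-type cells (filled circles) and other cells (open squares) of the library labelled WT (blue) and the library labelled cKO (red), with exact Poisson 95% intervals. *Ltbp1* in other cells stood at 47.0 and 266 CPM, *Ltbp4* in other cells at 1159 and 605 CPM, and *Ltbp2* had the widest intervals, at 5 to 168 UMIs per point.

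Among the ligands, *Tgfb1*, the isoform most often tied to fibrosis, stood at 23.7 CPM (1209 UMIs) in the library labelled WT and 29.5 CPM (1459 UMIs) in the library labelled cKO, 1.24-fold higher (interval 1.15 to 1.34). The difference was larger in Dpp4-type cells, at 12.2 and 22.5 CPM (1.85-fold, interval 1.53 to 2.23), than in other cells, at 28.1 and 32.4 CPM (1.15-fold, interval 1.06 to 1.26). The ratio of these 2 ratios was 1.60 (interval 1.31 to 1.96). Of these levels, that in Dpp4-type cells of the library labelled WT was the lowest, 2.31-fold below other cells (interval 1.96 to 2.73). In the library labelled cKO, Dpp4-type cells were 1.44-fold below other cells.

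*Tgfb2*, whose product relies on betaglycan to reach the type II receptor, stood at 126 and 138 CPM over all cells. It was lower in Dpp4-type cells of the library labelled cKO, at 170 and 152 CPM (ratio 0.893, interval 0.843 to 0.947), and higher in other cells, at 109 and 132 CPM (1.22-fold, interval 1.17 to 1.27). The 2 kinds of cell therefore stood closer together in the library labelled cKO, with Dpp4-type cells 1.57-fold above other cells in the library labelled WT and 1.15-fold in the library labelled cKO. The share of other cells with a *Tgfb2* UMI went the opposite way, from 34.6% to 31.7% once each cell was thinned to 5000 UMIs and from 53.4% to 44.7% with all UMIs, so no order is read from the share.

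*Tgfb3* was the only ligand lower in the library labelled cKO over all cells, at 49.6 and 40.4 CPM (ratio 0.814, interval 0.767 to 0.863). It was lower in both kinds of cell, at 40.0 and 28.7 CPM in Dpp4-type cells (ratio 0.717) and at 53.3 and 45.3 CPM in other cells (ratio 0.851). Within each library, Dpp4-type cells had less *Tgfb3* than other cells, by 1.33-fold and 1.58-fold. *Ttll5*, on the opposite strand, overlaps the 3′ end of *Tgfb3* in the annotation, and whether counting used strand was not given in the sources used here.

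Among the receptors, *Tgfbr2*, the type II receptor that binds ligand first, set the 2 kinds of cell apart most. It stood at 480 CPM in Dpp4-type and 184 CPM in other cells of the library labelled WT, and in the library labelled cKO at 518 and 215 CPM. Dpp4-type cells were thus 2.61-fold (interval 2.52 to 2.70) and 2.41-fold (interval 2.33 to 2.48) above other cells. Between the libraries it was 1.08-fold higher in Dpp4-type cells and 1.17-fold higher in other cells of the library labelled cKO.

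*Tgfbr1*, the type I receptor kinase, stood at 34.1 and 46.1 CPM over all cells, 1.35-fold higher in the library labelled cKO (interval 1.27 to 1.44). The difference was seen in other cells, at 33.4 and 48.7 CPM (1.46-fold, interval 1.35 to 1.57). In Dpp4-type cells it stood at 35.8 and 40.0 CPM, a ratio of 1.12 whose interval of 0.992 to 1.26 included 1. *Tgfbr3*, which encodes the co-receptor betaglycan, stood at 168 and 229 CPM over all cells (1.36-fold, interval 1.33 to 1.40). In the library labelled cKO it was at 230 CPM in Dpp4-type and 229 CPM in other cells, a ratio of 1.004 (interval 0.964 to 1.05), and in the library labelled WT at 190 and 159 CPM.

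**Figure D2:**
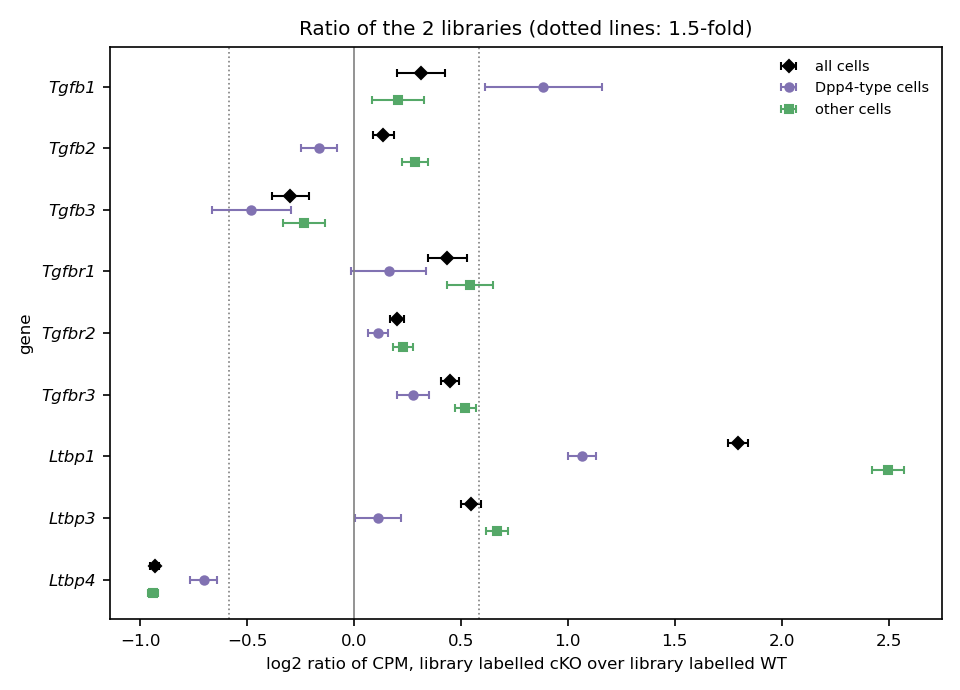
Log2 ratio of CPM, library labelled cKO over library labelled WT, for the 9 genes with enough UMIs (rows), over all cells (diamonds), Dpp4-type cells (circles) and other cells (squares), with exact 95% counting intervals and dotted lines at 1.5-fold. *Ltbp1* lies to the right of the upper line and *Ltbp4* to the left of the lower line for all 3 sets of cells, and *Tgfb2* lies on opposite sides of 0 in Dpp4-type and other cells.

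In Dpp4-type cells, 3 of the 9 genes differed by more than 1.5-fold between the libraries, *Tgfb1* and *Ltbp1* upward and *Ltbp4* downward, where 17.3% of 11599 genes did, 8.5% upward and 8.82% downward. In other cells, 3 of the 9 did so as well, *Ltbp1* and *Ltbp3* upward and *Ltbp4* downward, where 17.5% of 11757 genes did, 9.96% upward and 7.56% downward. With TMM scaling *Ltbp3* was at 1.47-fold there, leaving 1 gene upward and 1 downward. Between the kinds of cell, 5 of the 9 genes differed by more than 1.5-fold in the library labelled WT, where 23.2% of 11746 genes did (9.08% higher and 14.1% lower), with *Tgfb2*, *Tgfbr2* and *Ltbp1* higher and *Tgfb1* and *Ltbp4* lower in Dpp4-type cells. In the library labelled cKO 5 of the 9 did, where 23.3% of 11758 genes did (8.16% higher and 15.1% lower), with *Tgfbr2* and *Ltbp1* higher and *Tgfb3*, *Ltbp3* and *Ltbp4* lower.

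The latent TGF-β binding proteins carried the larger differences. *Ltbp1* encodes a family member that binds the latent complex of every TGF-β isoform, and it lies at chr17:75005568-75392512 on the plus strand (mm10). *Ltbp4* encodes a member that binds latent TGF-β1 weakly and is needed to assemble elastic fibers, and it lies at chr7:27305136-27337692 on the minus strand. RefSeq gives 2 start sites for *Ltbp1* and 3 for *Ltbp4* (GRCm38.p6), and 8 of the 10 genes had a promoter in that table. Because counts of 3′ ends do not tell which start was used, the 250 bases before both *Ltbp1* starts and before the outermost *Ltbp4* start are shown, since these 2 genes differed in opposite directions. The letters searched on both strands were CAGAC (the core that SMADs bind), TGACGTCA (the cAMP response element), TGANTCA (the AP-1 site), GGGCGG (the GC box) and TATAAA (the TATA box), and capitals mark a match on either strand.

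Ltbp1 first start, chr17:75005279-75005528, plus strand: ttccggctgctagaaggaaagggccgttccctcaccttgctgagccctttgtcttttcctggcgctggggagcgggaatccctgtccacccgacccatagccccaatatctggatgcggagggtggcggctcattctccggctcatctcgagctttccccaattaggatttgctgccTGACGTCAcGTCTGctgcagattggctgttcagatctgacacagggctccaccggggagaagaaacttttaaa

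Ltbp1 second start, chr17:75178531-75178780, plus strand: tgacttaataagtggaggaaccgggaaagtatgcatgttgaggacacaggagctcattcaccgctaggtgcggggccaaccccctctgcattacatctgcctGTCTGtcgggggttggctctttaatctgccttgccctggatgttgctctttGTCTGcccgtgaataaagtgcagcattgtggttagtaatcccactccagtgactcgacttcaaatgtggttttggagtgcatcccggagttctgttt

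Ltbp4 outermost start, chr7:27337613-27337862, minus strand: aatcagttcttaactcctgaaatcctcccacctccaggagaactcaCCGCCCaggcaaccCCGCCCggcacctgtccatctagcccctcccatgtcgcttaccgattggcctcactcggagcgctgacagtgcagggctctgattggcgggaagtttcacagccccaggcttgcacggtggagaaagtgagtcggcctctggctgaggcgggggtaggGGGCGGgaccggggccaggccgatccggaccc

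The first *Ltbp1* promoter held 1 cAMP response element and 1 CAGAC, and the second held 2 CAGAC. The *Ltbp4* promoter held 3 GC boxes and none of the other letters. Among all 32851 promoters of this length in the table, 42.2% held CAGAC, 1.55% TGACGTCA, 6.75% TGANTCA, 32.7% GGGCGG and 12.4% TATAAA. A match describes the letters of these windows and is neither a bound site nor a cause.

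*Ltbp1* had 4607 UMIs (90.3 CPM) in the library labelled WT and 15531 UMIs (314 CPM) in the library labelled cKO. In other cells it stood at 47.0 and 266 CPM, 5.65-fold higher in the library labelled cKO (interval 5.37 to 5.95). In Dpp4-type cells it stood at 203 and 426 CPM, 2.09-fold higher (interval 2.00 to 2.19). The ratio in other cells exceeded that in Dpp4-type cells by 2.70-fold (interval 2.52 to 2.89). The 4.32-fold excess of Dpp4-type over other cells in the library labelled WT (interval 4.07 to 4.59) was accordingly 1.60-fold in the library labelled cKO (interval 1.55 to 1.65). More cells held the transcript, since with each cell thinned to 5000 UMIs, *Ltbp1* was found in 27.6% of cells (interval 26.2% to 29.0%) of the library labelled WT and in 57.2% (interval 55.7% to 58.7%) of the library labelled cKO. With all UMIs, the shares were 44.5% and 71.3%. None of the cells belongs to a type that should lack these genes, so the share that free RNA gives could not be measured.

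*Ltbp4* had 48283 UMIs (946 CPM) in the library labelled WT and 24579 UMIs (496 CPM) in the library labelled cKO. It was lower in both kinds of cell. In Dpp4-type cells it stood at 391 and 240 CPM (1.63-fold lower, interval 1.56 to 1.70), and in other cells at 1159 and 605 CPM (1.92-fold lower, interval 1.88 to 1.95). The ratio of these 2 ratios was 1.18 (interval 1.12 to 1.23). Unlike *Ltbp1*, it was lower in Dpp4-type than in other cells, by 2.96-fold and 2.52-fold. After thinning, 88.6% of cells (interval 87.5% to 89.5%) held *Ltbp4* in the library labelled WT and 70.4% (interval 69.0% to 71.8%) in the library labelled cKO, or 95.6% and 83.6% with all UMIs.

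The 2 genes were also set against each other within each library, where transcript length cancels between libraries. For every 100 UMIs of *Ltbp4* there were 9.54 UMIs of *Ltbp1* in the library labelled WT (interval 9.26 to 9.83) and 63.2 in the library labelled cKO (interval 61.9 to 64.5). In Dpp4-type cells these counts were 52.0 and 177, and in other cells 4.06 and 44.0. Without the cells that held 2 or more UMIs of immune, endothelial, mural, muscle stem, Schwann, erythroid or platelet markers (1490 and 1957 cells), *Ltbp1* was 3.27-fold higher over all cells and *Ltbp4* stood at 0.500 times its level in the library labelled WT.

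*Ltbp3*, which encodes a member that binds all latent isoforms and is needed in the skeleton, stood at 127 and 186 CPM over all cells (1.46-fold, interval 1.42 to 1.51). The difference lay in other cells, at 139 and 221 CPM (1.59-fold, interval 1.53 to 1.65), while Dpp4-type cells stood at 96.3 and 104 CPM (1.08-fold, interval 1.004 to 1.16).

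*Ltbp2*, which encodes the member that does not bind latent TGF-β, had 100 UMIs (1.96 CPM) in 28 of 4103 cells of the library labelled WT and 177 UMIs (3.57 CPM) in 39 of 4378 cells of the library labelled cKO. A handful of cells held most of them. The 3 cells with the most accounted for 64 of the 100 UMIs and 85 of the 177, with up to 32 and 39 UMIs in a single cell, so its level is that of a few cells. Dpp4-type cells held 5 and 9 of these UMIs.

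The threshold that splits the cells was then replaced by bins of the same marker sum. Cells just outside it, with 15 to 25 marker UMIs per 10000, had *Ltbp1* at 92.6 CPM in the library labelled WT, and those just inside, with 25 to 50, had it at 167 CPM. In the library labelled cKO the same bins stood at 383 and 394 CPM. *Ltbp4* stood at 985 and 562 CPM in these bins of the library labelled WT, and the library labelled cKO had 497 and 297 CPM there. The summed markers themselves differed between the libraries over all cells. *Pi16* stood at 1243 and 863 CPM and *Anxa3* at 358 and 284 CPM, while *Sema3c* stood at 459 and 560 CPM and *Efemp1* at 209 and 306 CPM. The same threshold or bin may therefore hold unlike cells in the 2 libraries.

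From the lowest bin to the highest, *Ltbp1* was higher in each next bin, from 35.9 to 244 CPM in the library labelled WT and from 209 to 545 CPM in the library labelled cKO. Some neighboring intervals overlapped, so those bins could not be put in order. In the library labelled WT these were the bins of 50 to 100 and of 100 or more. In the library labelled cKO the bin of 15 to 25 overlapped those of 5 to 15 and of 25 to 50. *Tgfbr2* was also higher in each next bin, with no overlap of neighboring intervals, from 167 to 655 CPM and from 195 to 659 CPM. It met the same level in the highest bin of both libraries. *Tgfb1* in the highest bin had 10 and 17 UMIs, or 5.25 CPM (interval 2.52 to 9.66) and 18.6 CPM (interval 10.9 to 29.8). *Ltbp3* stood at 136 and 236 CPM in the lowest bin but at 94.1 and 99.2 CPM in the bin of 50 to 100. At 15 to 25 it stood at 145 and 146 CPM, so that the libraries were apart below that bin. The highest bin held 144 and 82 cells.

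**Figure D3:**
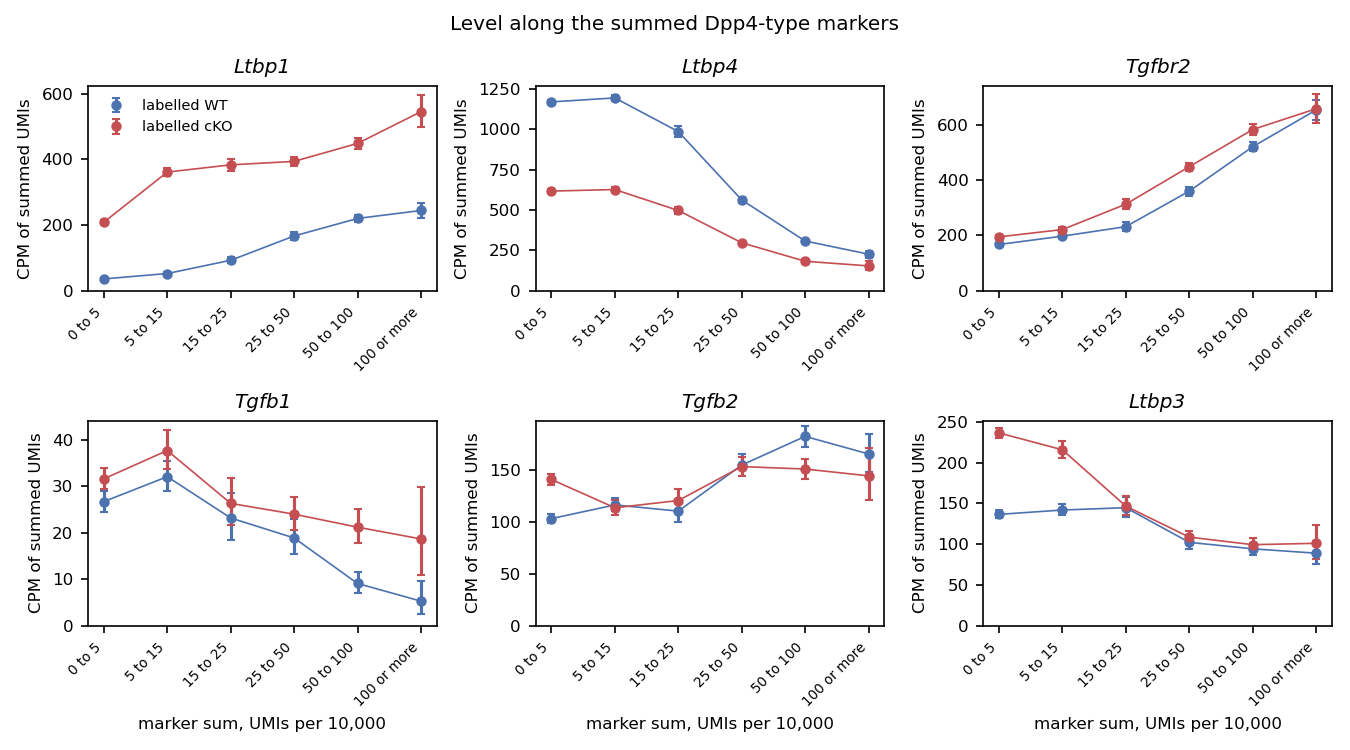
CPM of 6 genes (vertical axes, from 0) in bins of the summed Dpp4-type markers in UMIs per 10000 (horizontal axes) for the library labelled WT (blue) and the library labelled cKO (red), with exact Poisson 95% intervals. *Ltbp1* and *Tgfbr2* are higher toward the right in both libraries, *Ltbp4* is lower from the second bin on, and the *Ltbp3* curves meet at 15 to 25.

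Cells were further placed in exclusive groups by the highest sum of marker genes, with 3 or more UMIs per 10000 needed, and each group is named by those genes. Cycling cells were set apart first by 5 or more UMIs per 10000 of *Mki67*, *Top2a*, *Birc5*, *Cenpf* and *Cdk1*. Groups of 50 or more cells are described, 7 in the library labelled WT and 9 in the library labelled cKO. The groups were of unequal size in the 2 libraries. Cells with *Spon1*, *Cldn2*, *Hsd11b2* or *Angpt4* made up 2.90% and 19.6% of cells, those with *Hmcn1*, *Meox1* or *Etv4* 13.0% and 3.15%, and those with *Fmo2*, *Angpt2* or *Stc1* 10.7% and 1.23%. The 6 groups present in both libraries were therefore compared one by one.

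*Ltbp4* was lower in the library labelled cKO in all 6 groups, with ratios from 0.519 to 0.815. *Ltbp1* was higher in all 6, although in the *Fmo2* group the ratio of 1.47 had an interval of 0.971 to 2.16 that included 1. The ratio of *Ltbp1* was highest in the *Hmcn1* and *Chad* groups. In the *Hmcn1* group it stood at 11.4 and 141 CPM (12.3-fold, interval 9.37 to 16.4), and in the group with *Chad*, *Tnmd* or *Cilp2* at 23.7 and 300 CPM (12.6-fold, interval 8.67 to 19.1). Cells that reached 3 UMIs per 10000 for no group's markers stood at 58.7 and 301 CPM, a 5.13-fold difference. The *Spon1* group stood at 69.2 and 239 CPM (3.45-fold), and Dpp4-type cells without *Krt7* and *Plet1* at 205 and 432 CPM (2.10-fold). Dpp4-type cells with *Krt7* or *Plet1*, a group described only in the library labelled cKO, had 401 CPM (interval 373 to 431), which overlapped the interval of 420 to 443 in those without.

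The *Hmcn1* group had the most *Ltbp4* in both libraries, at 1797 CPM in the library labelled WT and 933 CPM in the library labelled cKO, the latter within the interval of the *Fmo2* group (928 CPM, interval 851 to 1009). The same group had the most *Tgfb1* in both libraries, at 49.8 CPM (interval 44.4 to 55.7) and 62.5 CPM (interval 50.1 to 77.0), so that the ligand gene and *Ltbp4* were highest in the same group. Its *Tgfb1* interval in the library labelled cKO overlapped that of cycling cells, at 53.6 CPM. In Dpp4-type cells of the library labelled cKO, *Tgfb1* stood at 37.4 CPM in those with *Krt7* or *Plet1* and at 19.9 CPM in those without. The library labelled WT held 3 such cells with *Krt7* or *Plet1*. In the cells without, *Tgfb1* was 1.64-fold higher in the library labelled cKO (interval 1.34 to 2.00).

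*Tgfbr2* was highest in Dpp4-type cells in both libraries. Those with *Krt7* or *Plet1* stood at 571 CPM (interval 538 to 607), above those without at 511 CPM (interval 499 to 524). The lowest groups were those with *Lgr5*, *Pappa2* or *Kdr* in the library labelled WT, at 121 CPM (interval 97.6 to 148), and the *Chad* group in the library labelled cKO, at 146 CPM. In the library labelled WT this interval overlapped those of the *Fmo2*, *Spon1* and *Chad* groups, at 140, 141 and 145 CPM. The *Chad* group, which shares *Tnmd* with the tendon markers, stood at 179 and 373 CPM of *Ltbp3* (2.09-fold, interval 1.80 to 2.43). It was highest in the library labelled cKO, and in the library labelled WT its interval of 156 to 205 overlapped that of the *Lgr5* group, at 168 CPM (interval 141 to 200). The *Chad* group held 75 of the 177 *Ltbp2* UMIs of the library labelled cKO, in 14 of 215 cells, and none in the library labelled WT, in 85 cells, which allows up to 3.13 CPM. Of those 75 UMIs, 56 lay in 3 cells. The part that these tendon-type markers had in the *Ltbp2* and *Ltbp3* levels of other cells was not tested.

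*Tgfb2* stood at its lowest levels in the *Fmo2* and *Lgr5* groups of the library labelled WT, at 49.7 CPM (interval 43.7 to 56.3) and 50.1 CPM (interval 35.6 to 68.5). In the library labelled cKO it did so in the group with *Wnt4*, *Pcsk2* or *Rtl4*, at 49.8 CPM (interval 38.8 to 63.1), and in the *Fmo2* group, at 65.4 CPM (interval 46.3 to 89.8). In neither library could these 2 groups be put in order. In the *Chad* group it stood at 71.2 and 143 CPM, 2.01-fold higher in the library labelled cKO (interval 1.58 to 2.57), and in the *Spon1* group at 103 and 170 CPM (1.65-fold, interval 1.39 to 1.99). The *Tgfb2* ratio was 1.32 in the *Fmo2* group (interval 0.910 to 1.86) and 0.984 in the *Hmcn1* group (interval 0.845 to 1.14). It was 1.06 in cells placed in no group (interval 1.0001 to 1.12) and 0.885 in Dpp4-type cells without *Krt7* and *Plet1* (interval 0.833 to 0.941). *Tgfb3* had ratios from 0.663 to 0.933 across the 6 groups, of which 3 had intervals below 1. *Tgfbr3* spanned 104 to 253 CPM over the groups of the library labelled WT and 122 to 290 CPM over those of the library labelled cKO.

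**Figure D4:**
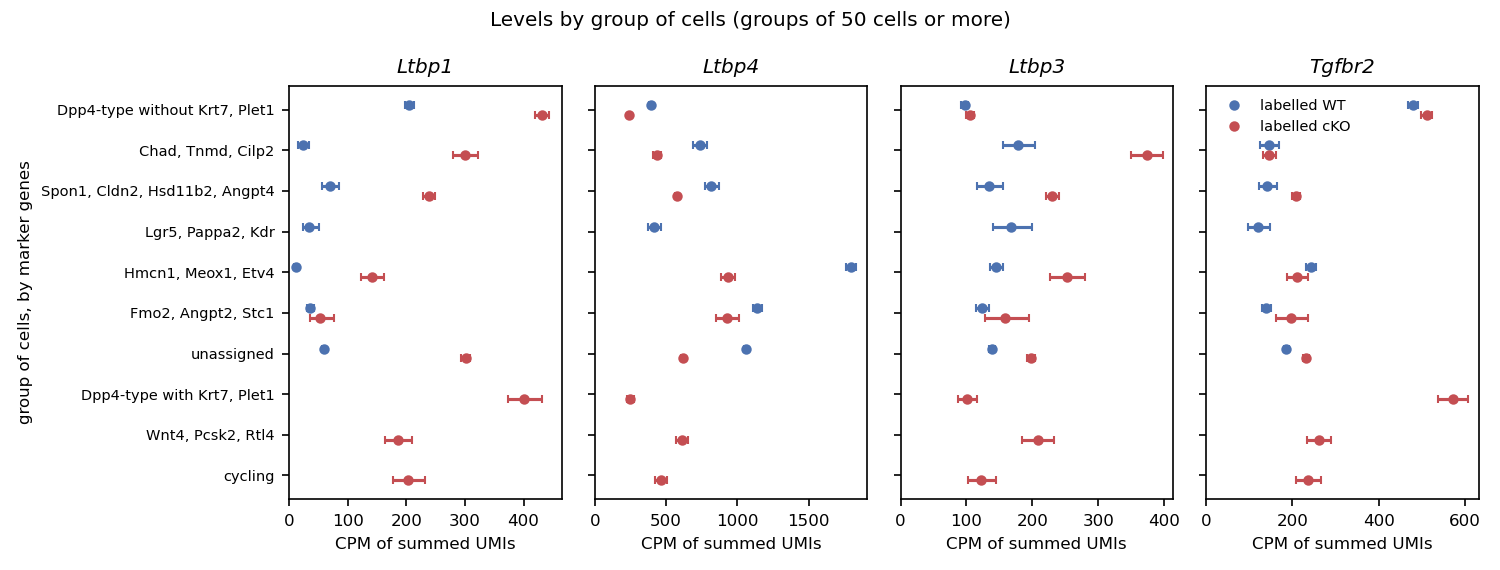
CPM of *Ltbp1*, *Ltbp4*, *Ltbp3* and *Tgfbr2* (horizontal axes, from 0) in groups of cells named by their marker genes (rows) in the library labelled WT (blue) and the library labelled cKO (red), with exact Poisson 95% intervals. In every row with both colors the red *Ltbp1* point lies to the right of the blue one and the red *Ltbp4* point to the left, and *Tgfbr2* is highest in the Dpp4-type rows.

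Over these 16 combinations of group and library, the genes with the most similar log2 levels were named for each gene by Pearson's r, from 9713 genes with enough UMIs. *Ltbp4* was most like *Spry1* (r = 0.97), *Tgfbr2* most like *Ackr1* (r = 0.97), *Ltbp1* most like *Pla2g16* (r = 0.92), *Ltbp3* most like *Ghr* (r = 0.92) and *Tgfb1* most like *C1d* (r = 0.93). Among the 10 genes themselves, *Tgfb3* and *Tgfbr2* were opposed (r = -0.85), as were *Ltbp1* and *Ltbp4* (r = -0.75). Each partner was picked as the highest r among 9713 genes over only 16 points, so a high r comes in part from the search. The points span both libraries, so differences between the libraries, such as those of *Ltbp1* and *Ltbp4*, enter r as well. These values are descriptions over points that share libraries and depth.

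Other genes of the pathway were measured from a list of 60 genes, of which 55 had enough UMIs over all cells and 16 differed by more than 1.5-fold between the libraries, 4 higher and 12 lower in the library labelled cKO. Of all genes, 15.9% did. With TMM scaling the split was 2 higher and 14 lower. The median log2 ratio of the list was -0.00060, against 0.10 over all genes.

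Of 16 genes for storage and activation of the ligand, 2 were higher and 3 lower, where 8.43% of all genes were higher and 7.51% lower. *Fbn1*, which encodes the fibrillin that anchors LTBPs, stood at 2094 and 3231 CPM (1.54-fold), and *Adamtsl2*, whose product binds LTBP1 and fibrillin, at 30.3 and 47.4 CPM (1.57-fold), and both were under 1.5-fold with TMM scaling. *Fbn2*, the fibrillin of developing tissue, stood at 73.9 and 26.3 CPM (ratio 0.355, interval 0.334 to 0.379). *Itgb8*, a subunit of an integrin that frees TGF-β, had only 145 and 69 UMIs (ratio 0.490, interval 0.362 to 0.657), and *Lrrc32*, which tethers latent TGF-β to the cell surface, stood at 16.1 and 9.16 CPM. *Thbs1*, which encodes the activator thrombospondin-1, stood at 188 and 228 CPM, and was 3.88-fold and 3.05-fold lower in Dpp4-type than in other cells.

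Of 8 genes for co-receptors and ligand-binding proteins, none was higher and 2 were lower by more than 1.5-fold, where 8.43% of all genes were higher and 7.51% lower. These were *Fmod*, which encodes the matrix proteoglycan fibromodulin, at 43.3 and 24.5 CPM (ratio 0.566), and *Bambi*, a pseudoreceptor, at 37.1 and 24.6 CPM (ratio 0.664). With TMM scaling 3 were lower, with *Eng* added at a ratio of 0.659. *Bgn*, which encodes biglycan, stood at 1663 and 1284 CPM. Of 16 genes for SMADs and their regulators, only *Smad7* passed 1.5-fold, where 15.9% of all genes did. *Smad7*, the inhibitory SMAD that TGF-β induces, stood at 55.6 and 35.1 CPM (ratio 0.631, interval 0.594 to 0.670). The signal carriers *Smad2*, *Smad3* and *Smad4* had ratios of 1.05, 1.01 and 1.002. *Smurf1*, a ubiquitin ligase that acts on SMADs and receptors, stood at 29.6 and 42.5 CPM (1.43-fold), and *Smad6* at 4.67 and 5.17 CPM.

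Of 15 response genes, which TGF-β is known to induce in fibroblasts, 2 were higher and 6 lower in the library labelled cKO, where 8.43% of all genes were higher and 7.51% lower. *Tgfbi*, named for its induction by TGF-β, stood at 547 and 86.6 CPM (ratio 0.158, interval 0.153 to 0.164), and was lower in Dpp4-type cells (176 and 42.5 CPM) and in other cells (689 and 105 CPM). *Acta2*, smooth muscle actin, stood at 8.13 and 4.34 CPM, and the fibrillar collagens *Col1a1*, *Col1a2* and *Col3a1* and the cross-linking enzyme *Lox* had ratios of 0.464, 0.452, 0.639 and 0.466. The 2 that were higher were *Tagln*, which encodes the actin-binding protein SM22, at 8.86 and 26.2 CPM (2.96-fold), and *Tnc*, which encodes tenascin-C, a protein also abundant in tendon, at 10.3 and 29.2 CPM (2.84-fold). *Tnc* stood at 0.779 and 2.78 CPM in Dpp4-type cells, from 11 and 41 UMIs, and at 13.9 and 40.4 CPM in other cells. The tendon markers stood at 2.90 and 7.04 CPM and at 32.8 and 88.7 CPM in these cells. The part that cells with tendon markers had in the *Tnc* levels was not tested. *Ctgf*, which encodes a matricellular protein, stood at 219 and 149 CPM (ratio 0.681), and was past 1.5-fold with TMM scaling, at 0.636. The remaining response genes were within 1.5-fold. *Pmepa1*, *Ldlrad4* and *Junb* had ratios above 1, at 1.11, 1.25 and 1.04. *Col5a1*, *Timp1* and *Postn* had ratios below 1, at 0.959, 0.869 and 0.738.

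**Figure D5:**
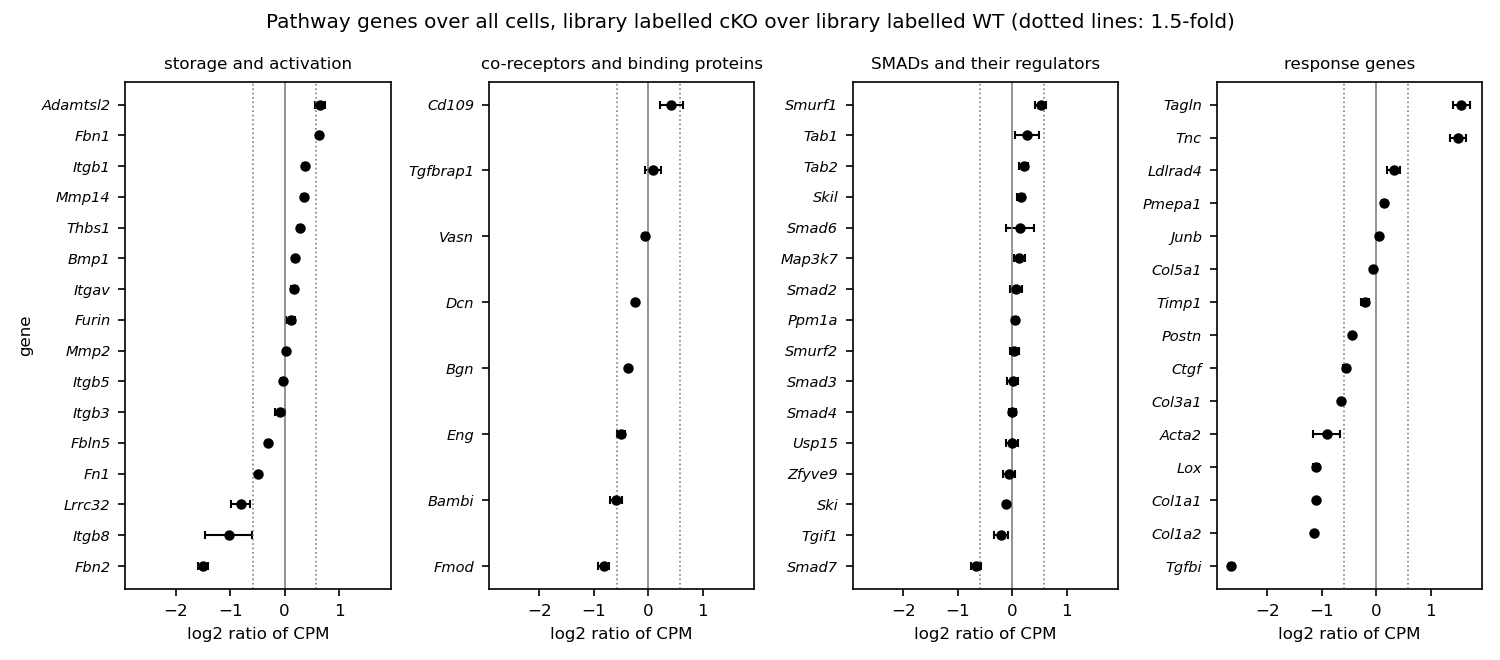
Log2 ratio of CPM over all cells, library labelled cKO over library labelled WT (horizontal axes), for the 55 other pathway genes with enough UMIs in 4 groups (panels), with exact 95% counting intervals and dotted lines at 1.5-fold. Most SMAD genes lie near 0, with *Smad7* at the left, and the response genes run from *Tgfbi* at 0.158-fold to *Tagln* at 2.96-fold.

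In the pathway list, 18 of 54 genes in Dpp4-type cells and 17 of 55 in other cells differed by more than 1.5-fold between the libraries, against 17.3% and 17.5% of all genes. In Dpp4-type cells 5 were higher and 13 lower, and in other cells 4 were higher and 13 lower. With TMM scaling there were 3 higher and 15 lower in both sets of cells. Between Dpp4-type and other cells, 22 of 55 did in the library labelled WT and 24 of 55 in the library labelled cKO, against 23.2% and 23.3% of all genes. In the library labelled WT 7 were higher and 15 lower in Dpp4-type cells, where 9.08% of all genes were higher and 14.1% lower. In the library labelled cKO 7 were higher and 17 lower, where 8.16% of all genes were higher and 15.1% lower. *Fmod* stood at 2.69 CPM in Dpp4-type and 58.9 CPM in other cells of the library labelled WT, and *Fbn1* at 4605 and 1133 CPM. Like *Fmod*, *Acta2*, *Tagln*, *Tnc*, *Tgfbi* and *Thbs1* were lower in Dpp4-type cells of both libraries. Like *Fbn1*, *Fn1*, *Bmp1*, *Vasn*, *Smurf1* and *Smurf2* were more than 1.5-fold higher in Dpp4-type cells of both. *Smurf1* stood at 53.3 CPM in Dpp4-type and 20.6 CPM in other cells of the library labelled WT, and at 76.4 and 28.0 CPM in the library labelled cKO. The response gene *Postn* was past 1.5-fold higher only in the library labelled WT, and *Itgb3* only in the library labelled cKO.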

How the data were processed

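Single cells from 2 libraries, 1 per genotype, were measured with 10x Genomics 3′ chemistry. The authors deposited whole-number UMI counts per gene and cell after alignment to mm10 with Cell Ranger 3.1.0 and, per the submitters' processing notes, Seurat 3.2.1. Quality control, doublet gating and removal of cells high in markers of other cell types preceded deposit. The thresholds were not given in the sources used here, and no doublet caller was run.

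UMIs were summed over each group of cells and scaled to CPM with numpy 2.4.6 and scipy 1.17.1. TMM factors came from edgeR 4.0.16, with no test. Ratios were tested on simulated data. Genes were compared at a mean normalized expression over 0.01 and 20 or more UMIs. The 10 genes, the pathway list and the markers were chosen with earlier results of these data known, and 1 gene of the pathway list is not reported here. Pathway genes were named by the largest differences in each of their 4 groups, with *Fbn1*, *Smad7*, *Ctgf* and *Tgfbi* always given, and the others named were chosen after their values were seen. The alternatives were other scalings, an equal weight per cell, thinning to 5000 UMIs, leaving out cells, other Dpp4-type thresholds, other UMI minimums and other folds. Promoters were taken from RefSeq (GRCm38.p6), which had none here for *Tgfb3* and *Tgfbr3*, and gene positions from the GENCODE annotation of the same build.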

Additional observations from a re-analysis of the deposited data

Results flagged for a closer look

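Between the libraries, 1 of the 9 compared genes and 4 of the 54 pathway genes compared in both kinds of cell had ratios on opposite sides of 1 in Dpp4-type and other cells with both counting intervals excluding 1. Of 11595 genes compared, 347 (2.99%) did. With 1 library per genotype, none of these differences was tested. *Tgfb2* had ratios of 0.893 in Dpp4-type and 1.22 in other cells, and kept these directions with TMM scaling, at 0.849 and 1.13. *Smad6* had ratios of 0.544 and 1.29, and of 0.516 and 1.20 with TMM scaling. It had few UMIs, at 51 and 29 in Dpp4-type cells and 187 and 227 in other cells. *Mmp2* had ratios of 0.823 and 1.11, and *Ski* of 1.05 and 0.885, of which TMM scaling left 1.03 for *Mmp2* in other cells and 1.002 for *Ski* in Dpp4-type cells. *Itgb5* had ratios of 0.825 and 1.05, and with TMM scaling both were below 1, at 0.784 and 0.976.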

How the results depend on the processing

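No paired analysis was possible because the 2 genotypes came with 1 library each. Among the ratios of the 10 genes, 338 stayed within their counting interval under an alternative and 92 left it. The direction turned only for *Tgfbr3* between Dpp4-type and other cells of the library labelled cKO (0.978 to 1.06). Over its alternatives *Ltbp1* ranged from 3.24 to 3.64 over all cells and from 4.67 to 5.96 in other cells, and *Ltbp4* from 0.490 to 0.524 over all cells. *Ltbp3* in other cells ranged from 1.47 to 1.67. *Ltbp2* was at 1.21 over all cells without cells holding markers of other cell types, against 1.82 with them.

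Counts past the fold depended on the fold by construction. Between the libraries, 1 of the 9 compared genes was past 2-fold and 1 past 3-fold over all cells (6.63% and 2.56% of all genes), 1 and 0 in Dpp4-type cells (7.06% and 2.69%), and 1 and 1 in other cells (7.44% and 3.07%). Of the pathway genes, 8 of 55 were past 2-fold and 1 past 3-fold over all cells, 6 and 4 of 54 in Dpp4-type cells, and 8 and 1 of 55 in other cells. Between the kinds of cell, 1 of the 9 genes and 9 of 55 pathway genes were past 3-fold in the library labelled WT (7.74% of all genes). In the library labelled cKO, 3 of the 9 genes were past 2-fold (13.3%), and 0 of them and 6 of 55 pathway genes past 3-fold (7.32%). The other alternatives kept the total counts of the 9 genes and of the pathway list within 1.5 times, but not all counts by direction or group. With TMM scaling, storage and activation genes over all cells went from 2 higher and 3 lower to 0 and 3, pathway genes higher over all cells from 4 to 2, and genes among the 9 that were higher in other cells from 2 to 1. A single library per genotype limits all comparisons, whatever the depth.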
